A study of Mus musculus with 4 samples.

Results

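CD8+ T cells sorted from Bcr-abl+ tumors of Sipa1-/- mice were compared with the same gate of wild-type (Wt) mice, on 1 array per genotype. These are 2 of the 4 arrays of the series, and the other 2 hold mesenchymal stroma cells (MSCs) from tumors of both genotypes. The arrays were chosen by their sample titles, and 14339 genes of the 22911 with a named probe passed the quality flags on both CD8+ T cell arrays. All mice were C57BL/6Ncr, 8 weeks of age, and carried GFP+ hematopoietic progenitor cells made leukemic with Bcr-Abl and placed under the skin in Matrigel. Tumors were taken on day 12, and the gate was GFP– TCRb+ CD8+, with no stain named against other lineages. The Sipa1 deletion was in the host, so stroma and immune cells of the tumor lacked the gene together, while the injected progenitors came from Wt mice. The series used 5 mice per genotype, and whether their cells were pooled for an array is not given in the sources used here. Each genotype rests on 1 array, so differences are described without replicates and were not tested.

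Sipa1 is a GTPase-activating protein that switches the small GTPase Rap1 off. In T cells, Rap1 is turned on by signals from the T-cell receptor (TCR) and from chemokines, and drives integrin adhesion. CD8+ T cells that meet antigen in a tumor turn on cytotoxic genes and interferon-gamma, and after repeated TCR signals they also carry inhibitory receptors such as PD-1, Tim-3, Lag-3 and Tigit.

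Levels below are log2 signals relative to the 75th percentile of the same array, given for the Wt array first and the Sipa1-/- array second. A log2 ratio is the Sipa1-/- level minus the Wt level, and a gene is counted as past 2-fold at a log2 ratio of 1 or more in size. Levels of different genes come from different probes and are not compared with each other. The same sorted RNA can hold fewer cells of a type or less RNA per cell, and an array of bulk RNA cannot tell these apart.

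The deleted gene was read first. Sipa1 had 2 probes, at 5.40 and 3.73 on one and at 3.43 and 1.39 on the other, with log2 ratios of -1.67 and -2.05. Both probes were lower on the array labelled Sipa1 KO and remained well above background there, and their place relative to the deleted part of the gene is not given, so the remaining signal cannot be assigned. In MSCs the mean Sipa1 level was 4.04 on the Wt array and 2.62 on the Sipa1-/- array, with both probes lower. Cd8b1, a chain of the CD8 coreceptor, read 7.29 and 7.41, and Cd3g, a chain of the CD3 signalling complex, read 5.28 and 5.29, so the T-cell label held on both arrays. Cd4 read -2.05 and -2.30. The libraries did not hold T-cell RNA alone, since granulocyte, fibroblast and B-lineage genes were also well above background on both arrays, with values given with each list.

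Across the 14339 genes, 381 were past 2-fold higher and 201 past 2-fold lower on the Sipa1-/- array, which is 2.66% and 1.40% of all genes, or 4.06% together. The median log2 ratio of all genes was -0.02, and 46.1% of genes were above 0. Higher genes made up 65.5% of those past 2-fold, a split that other scalings moved to 52.5% (median shift), 52.4% (normexp background), 76.3% (values of the series matrix) and 48.9% (genes above the median signal). Dim genes carried most of the higher calls. When genes were ranked by mean signal into 4 equal groups, the dimmest held 207 higher and 73 lower genes and the brightest 19 higher and 28 lower. Among the 7169 genes above the median signal 67 were past 2-fold higher and 70 lower, which is 0.935% and 0.976%, or 1.91% together, and 34.5% were above 0. Probes that measured the same gene gave log2 ratios with a pooled SD of 0.25, which is an error of the probes and not of the animals.

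**Figure D1:**
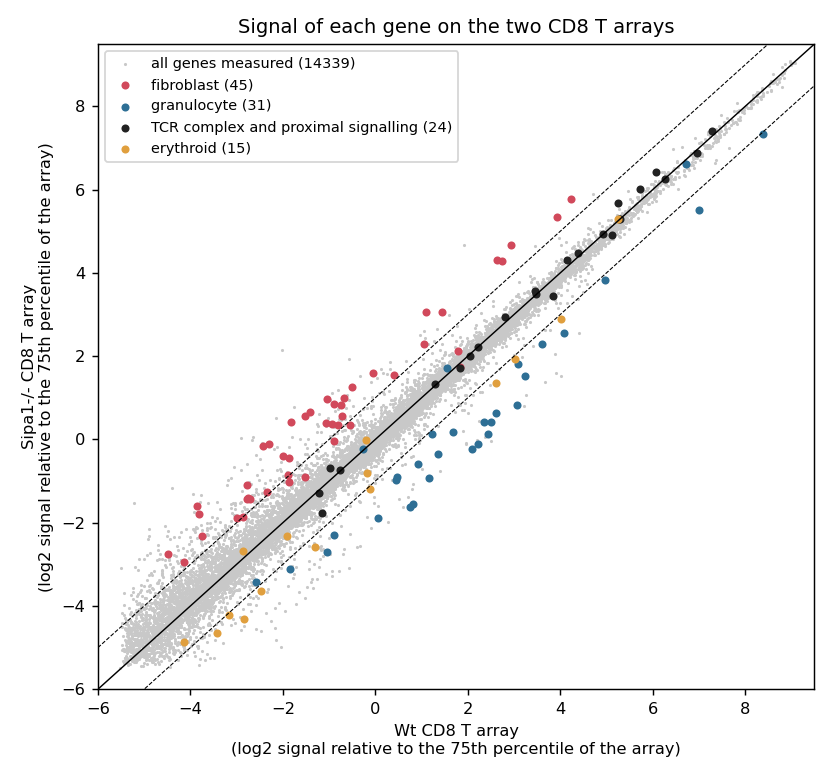
Level of each of the 14339 genes on the Wt array (x axis) and the Sipa1-/- array (y axis), both as log2 signal relative to the 75th percentile of the array, with the members of 4 gene lists in color, the line of equal level and dashed lines at 2-fold. The 24 TCR genes lie along the line of equal level, 39 of 45 fibroblast genes lie above the upper dashed line and 27 of 31 granulocyte genes below the lower one.

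Lists of T-cell state genes, 14 in number, and 16 lists of markers of other cells were described by their measured members. Of 303 T-cell state genes measured, 6 were past 2-fold higher and 3 lower, or 2.97%, against 4.06% of all genes. Of 252 marker genes of other cells measured, 43 were past 2-fold higher and 54 lower, or 38.5%. Most list genes past 2-fold were thus markers of cells outside the gate. The lists were chosen with earlier results of these data known, so these shares may partly follow from that choice. List members past 2-fold with a signal above the median are named by rule, and the other members named below were picked after their values were seen.

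**Figure D2:**
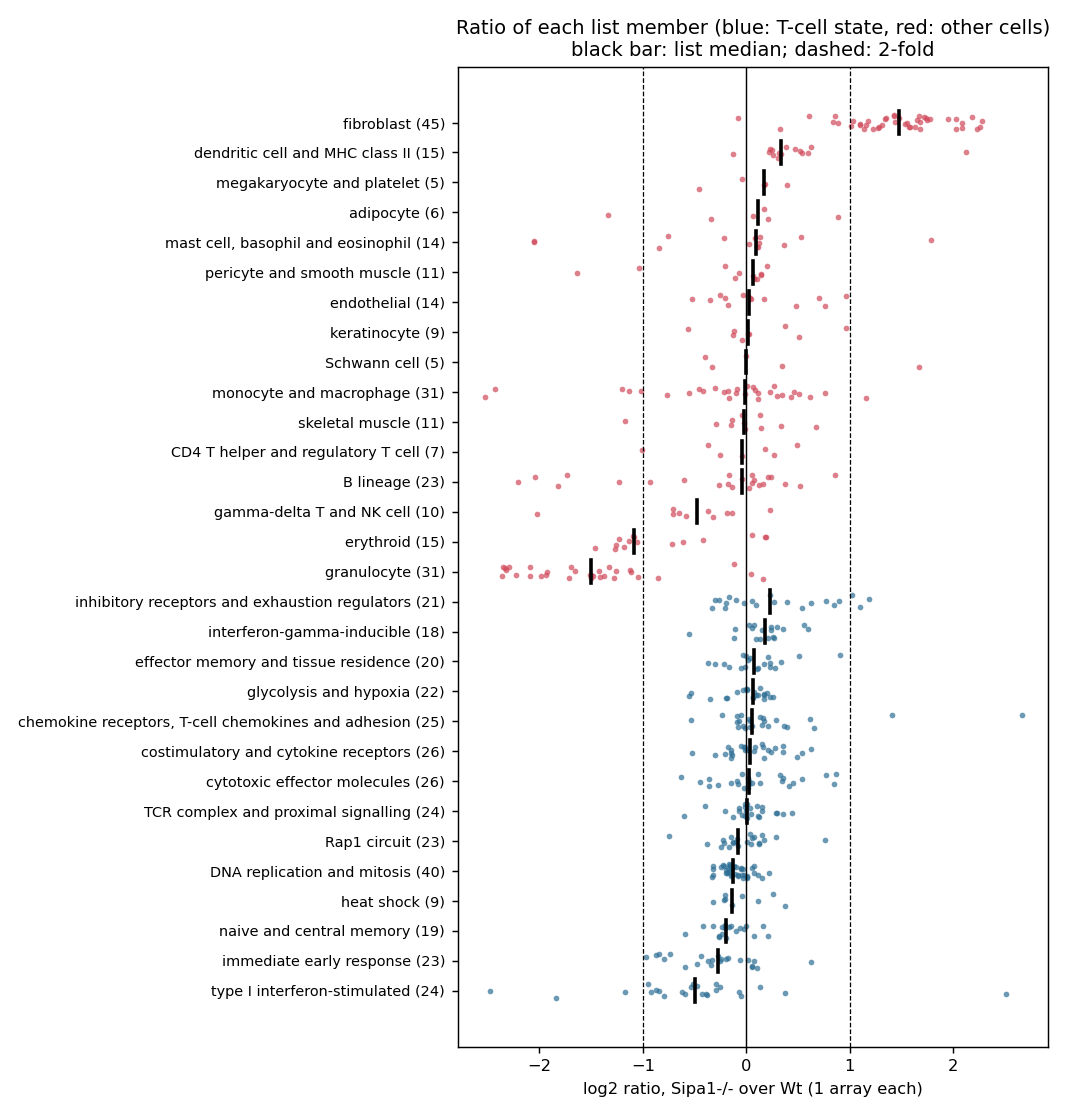
Log2 ratio of every measured list member, Sipa1-/- over Wt (x axis), 1 row per list with the number measured in brackets, T-cell state lists in blue and other cells in red, black bars at the list medians and dashed lines at 2-fold. The fibroblast median lies at 1.48 and the granulocyte median at -1.51, while the T-cell state medians lie between -0.50 and 0.22.

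The TCR complex and its proximal signalling genes, which carry the antigen signal from the receptor into the cell, were level between the genotypes. None of the 24 measured members was past 2-fold, and 14 were above 0, or 58.3% against 46.1% of all genes. The median was 0.01, with a sign, taken here and below relative to the median of all genes, that depended on the setting. Cd3e read 4.15 and 4.31, Cd8a, the alpha chain of the coreceptor, read 3.46 and 3.57, and Lck, the kinase that starts the signal, read 5.11 and 4.91. The widest ratios were those of Cd5, a receptor that tempers TCR signals, at 0.44 and of Trat1, an adaptor of the TCR, at -0.60. The TCR constant genes Trac, Trbc1 and Trbc2 had no named probe.

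Inhibitory receptors and regulators of exhaustion, which restrain T cells after repeated stimulation, had the highest median of the T-cell state lists, at 0.22. Of 21 measured members 13 were above 0, or 61.9% against 46.1% of all genes. This share did not set the list apart, as it was 61.5% for cytotoxic and 64.0% for chemokine and adhesion genes. Past 2-fold higher were 3, against 2.66% of all genes, and none was past 2-fold lower. Pdcd1, which encodes PD-1, read 2.03 on the Wt array and 3.13 on the Sipa1-/- array, a log2 ratio of 1.10 or 2.14-fold. Rgs16, a regulator of G protein signalling, read 3.46 and 4.65, a ratio of 1.19. Entpd1, the ectonucleotidase CD39, read -0.98 and 0.04, a ratio of 1.02. This was just past the 2-fold line, with a mean signal below the median of all genes. All 3 were higher on the Sipa1-/- array, and each was read by 1 or 2 probes.

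The receptor genes Lag3, Havcr2 and Tigit lay on the same side, below the 2-fold line. Lag3, which binds MHC class II, had 2 probes with ratios of 0.82 and 0.97. Havcr2, which encodes Tim-3, read 1.23 and 2.08, and Tigit, a receptor for nectin-family ligands, read -1.13 and -0.36. Their ratios of 0.85 and 0.77, from 1 probe each, were under 2-fold and wider than the pooled probe SD of 0.25. That SD does not measure differences between animals or sorts. Tox, a transcription factor of exhausted T cells, read -0.20 and 0.19, and Ctla4 had a ratio of 0.27. Other members leaned the opposite way, with Nr4a1, a target of TCR signals, at -0.33, Cd160 at -0.30 and Btla at -0.20. On the MSC arrays Pdcd1 read -4.60 and -3.58 and Lag3 -5.01 and -2.87, far below the CD8+ T cell arrays. Of the 18 members measured on all 4 arrays, 11 were lower on both MSC arrays than on both CD8+ T cell arrays. None was higher on both, and the rest overlapped.

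Cytotoxic effector molecules, which kill target cells or carry the signals of killing, had a median of 0.03 over 26 measured members. Of these 16 were above 0, or 61.5% against 46.1% of all genes, and none was past 2-fold. Ifng, the cytokine interferon-gamma, read 3.98 and 4.85, a ratio of 0.87 or 1.82-fold. Gzmk, a granzyme of less differentiated effector cells, read 1.45 and 2.30, a ratio of 0.85. Both were higher on the Sipa1-/- array and, relative to the median of all genes, stayed under 2-fold in all 11 alternatives. Gzmb, the granzyme that triggers apoptosis, read 4.84 and 5.19, and Prf1, the pore-forming perforin, read 2.45 and 2.78. Klrg1, a receptor of terminal effector cells, had a ratio of 0.77 and Fasl a ratio of 0.54. In the other direction, the cytokine gene Tnf had a ratio of -0.63, Klrd1, a partner of NK receptors, -0.45 and Gzma -0.36. The granzyme genes Gzmd, Gzme, Gzmf, Gzmg and Gzmn were not well above background on either array.

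Genes of naive and central memory T cells were lower in 16 of 19 measured members, with 15.8% above 0 against 46.1% of all genes. The median was -0.19 and none was past 2-fold. Of the 16 members above the median signal 2 were above 0, against 34.5% of all genes above it. Dapl1, a gene of naive CD8+ T cells, had a ratio of -0.59 and Bcl2, which protects resting T cells from death, -0.42. Tcf7, the transcription factor of stem-like memory cells, read 1.90 and 1.69, and Il7r, the receptor for the survival cytokine IL-7, read 5.55 and 5.40. Ccr7, a chemokine receptor that guides T cells into lymph nodes, read 4.22 and 4.43. These ratios were small, mostly within the pooled probe SD of 0.25, and the direction of the median held under all alternatives.

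Genes of effector memory and tissue residence had a median of 0.07 over 20 measured members. Of these 12 were above 0, or 60.0% against 46.1% of all genes. Tbx21, the effector transcription factor T-bet, read 3.59 and 3.69, Eomes, its relative in memory cells, read 0.25 and 0.46, and Cd44, the adhesion receptor of activated cells, read 0.06 on both arrays as the mean of 3 probes with ratios between -0.34 and 0.47. Prdm1, which encodes the effector factor Blimp-1, stood apart with 0.70 and 1.61, a ratio of 0.91. Cd69, an early activation and residence marker, had a ratio of -0.37.

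**Figure D3:**
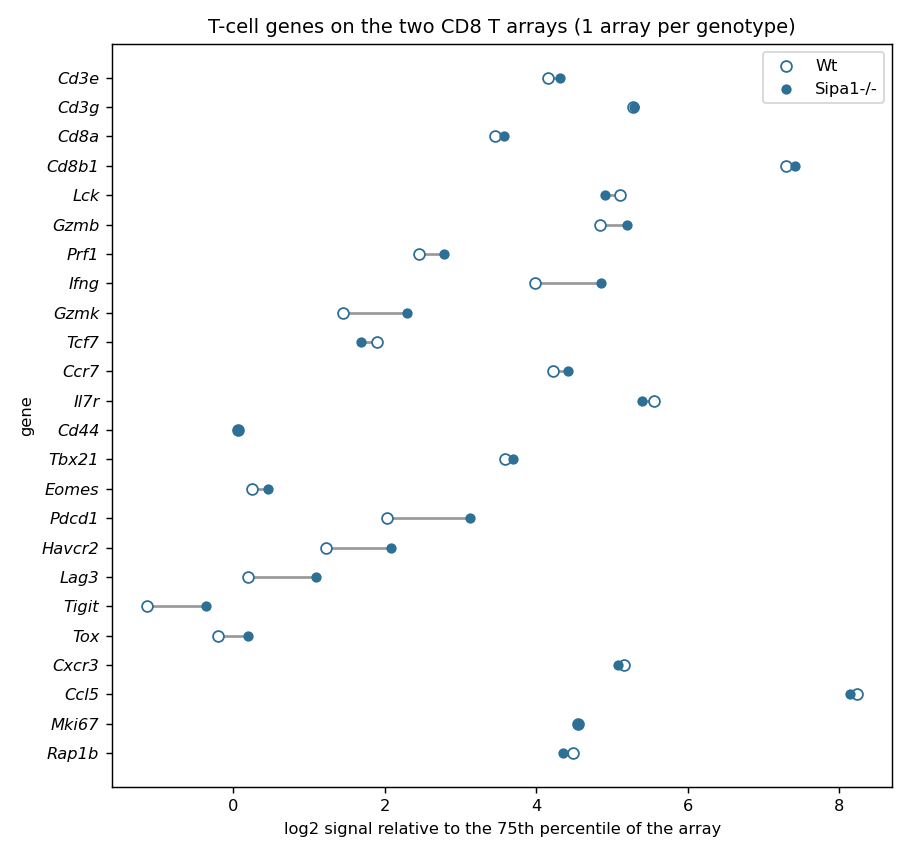
Level of 24 T-cell genes on the Wt array (open circles) and the Sipa1-/- array (filled circles), as log2 signal relative to the 75th percentile of the array (x axis), 1 gene per row. The shift to the right is widest for Pdcd1 (2.03 to 3.13), Lag3, Ifng, Havcr2 and Gzmk, while Cd3g, Cd44 and Mki67 overlap.

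Costimulatory and cytokine receptors, which add to the TCR signal, had a median of 0.04 with a sign that depended on the setting, and none of 26 was past 2-fold. The TNF receptor family members Tnfrsf4 (OX40) and Tnfrsf9 (4-1BB), both induced by TCR signals, had ratios of 0.63 and 0.54, and Slamf6, found on stem-like cells, had a ratio of -0.52. Among chemokine receptors, T-cell chemokines and adhesion molecules the median was 0.06 over 25 measured members. Past 2-fold higher were 2, against 2.66% of all genes, and none was past 2-fold lower. Ccl1, a chemokine of activated T cells, read -2.14 and 0.52, a ratio of 2.66, and its receptor Ccr8 had a ratio of 1.41 at a level near background. Cxcr6, a receptor of tissue-resident T cells, had a ratio of 0.66 and Ccl4 0.62. Cxcr3, the receptor for Cxcl9 and Cxcl10, read 5.16 and 5.08, and Ccl5, a chemokine of effector T cells, 8.23 and 8.14, with signs that changed between settings.

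In the Rap1 circuit, in which Sipa1 acts, members other than Sipa1 itself lay on both sides of 0. None of the 23 measured was past 2-fold, and 11 were above 0, or 47.8% against 46.1% of all genes. The median was -0.08 with a sign that depended on the setting. Rap1b, the main Rap1 protein of leukocytes, read 4.48 and 4.36. The other GTPase-activating proteins of Rap1 were measured too, with Rap1gap at -2.55 and -1.79, a ratio of 0.76, Rap1gap2 at -1.21 and -1.96, a ratio of -0.75, and the Sipa1-like genes Sipa1l1, Sipa1l2 and Sipa1l3 at ratios of -0.16, -0.22 and 0.00. Rasgrp2, an activator of Rap1 in leukocytes, had a ratio of -0.38.

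Interferon-responsive genes fell into lists with medians on opposite sides of 0. Type I interferons act through the ISGF3 complex, which binds the interferon-stimulated response element (ISRE), while interferon-gamma acts on gamma-activated sites. Of 24 measured genes of the type I list 21 were below 0, leaving 12.5% above 0 against 46.1% of all genes. The median was -0.50. Of its 20 genes above the median signal 3 were above 0, against 34.5% of all genes above it. Of 18 measured interferon-gamma-inducible genes, all above the median signal, 15, or 83.3%, were above 0, with a median of 0.18. Both directions held under every alternative when the median of all genes was subtracted.

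In the type I list, 3 genes were past 2-fold lower, against 1.40% of all genes. Ifitm1, a membrane protein that blocks virus entry, read 4.01 and 1.53, a ratio of -2.48 or 5.58-fold. Rsad2, the antiviral enzyme viperin, read -1.22 and -3.06, a ratio of -1.84, and Oas2, an oligoadenylate synthetase, read 2.48 and 1.30, a ratio of -1.17. Isg15, a ubiquitin-like modifier, read 4.49 and 3.54, just under 2-fold at -0.95. Ifit1 and Ifit3, antiviral proteins induced by interferon, had ratios of -0.84 and -0.79, and Irf7, the factor that amplifies type I interferon, -0.54. Xaf1 had a mean ratio of 2.51 from 2 probes in opposition, at -1.04 and 6.06, and taking its brighter probe turned its direction. Without Xaf1 the list median was -0.51, and without Xaf1 and Ifitm1 it was -0.50.

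In the interferon-gamma list none of the 18 genes measured on both arrays was past 2-fold. The GTPase gene Iigp1 read 1.52 and 2.11, a ratio of 0.60, and the chemokine gene Cxcl9, a ligand of Cxcr3, read 2.18 and 2.74, a ratio of 0.56. All 6 measured guanylate-binding protein genes were above 0, between 0.13 and 0.29, and Tap1 and Psmb9, of antigen processing, were at 0.26 and 0.27. The 3 members below 0 were Cxcl10, another ligand of Cxcr3, at -0.55, Cd274, which encodes PD-L1, at -0.12 and Ifi47, a GTPase, at -0.11. Ido1 was well above background on the Sipa1-/- array only and at least 2.08-fold higher there. Granulocyte genes, which were lower on the same array, and dendritic cell genes, which were higher, moved alongside these lists, and their part in them was not tested.

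**Figure D4:**
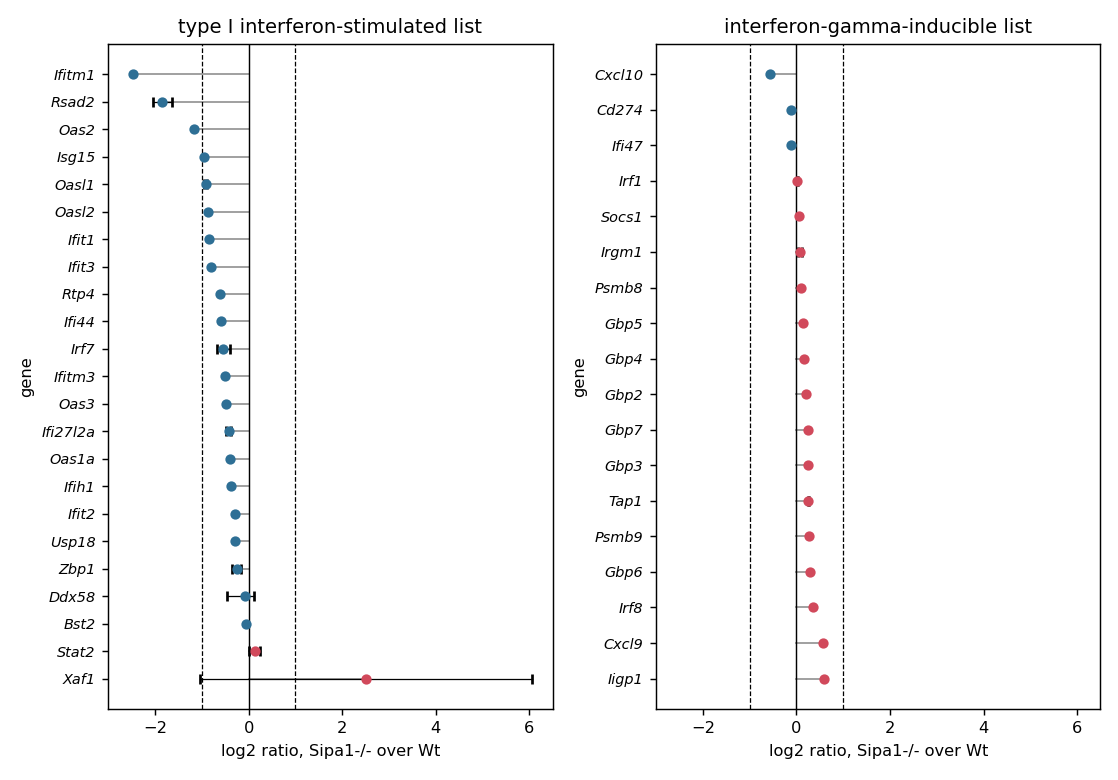
Log2 ratio, Sipa1-/- over Wt (x axis), of 23 of the 24 measured genes of the type I interferon-stimulated list (left) and the interferon-gamma-inducible list (right, all 18), with black marks at the lowest and highest probe where a gene had several and dashed lines at 2-fold. On the left 21 genes lie below 0 and the marks of Xaf1 span both directions, and on the right 15 lie above 0.

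The promoters of 3 of these genes are shown to set the ISRE beside the ratios. They are the 250 bases before the RefSeq start of the gene on build GRCm38.p6, 5′ to 3′ on the strand of the gene, and the capitals mark matches to the ISRE core, GAAA followed by any 2 bases and GAAA, on either strand, overlapping matches included. Rsad2 lies on the minus strand at chr12:26456453-26456702, Isg15 on the minus strand at chr4:156200819-156201068, and Gbp2 on the plus strand at chr3:142620413-142620662.
Rsad2: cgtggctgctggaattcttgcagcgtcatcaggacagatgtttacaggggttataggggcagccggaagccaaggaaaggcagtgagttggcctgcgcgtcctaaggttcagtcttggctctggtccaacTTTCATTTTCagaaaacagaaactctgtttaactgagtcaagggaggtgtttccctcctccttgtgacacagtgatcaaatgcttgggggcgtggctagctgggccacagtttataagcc
Isg15: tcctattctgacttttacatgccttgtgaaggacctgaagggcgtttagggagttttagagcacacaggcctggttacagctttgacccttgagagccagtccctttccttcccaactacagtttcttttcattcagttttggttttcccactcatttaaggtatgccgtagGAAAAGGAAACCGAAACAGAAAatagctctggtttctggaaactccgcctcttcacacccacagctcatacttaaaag
Gbp2: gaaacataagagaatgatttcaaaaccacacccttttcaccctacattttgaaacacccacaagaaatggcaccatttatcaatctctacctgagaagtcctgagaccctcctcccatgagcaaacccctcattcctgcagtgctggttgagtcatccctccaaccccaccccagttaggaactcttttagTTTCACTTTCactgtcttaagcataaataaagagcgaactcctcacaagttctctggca

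Rsad2 held 1 match starting 120 bases before the start, Isg15 held 3 overlapping matches from 78 bases before it, and Gbp2 held 1 at 59 bases. Rsad2 and Isg15 were lower on the Sipa1-/- array while Gbp2, of the interferon-gamma list, had a ratio of 0.21. Over the lists, 8 of 18 type I genes with a promoter in the table held the ISRE core, or 44.4%, and 7 of 15 interferon-gamma-inducible genes, or 46.7%, against 3.46% of all 27025 genes with a promoter. The gamma-activated site TTCNNNGAA, searched the same way, was in 3 of 18 and 5 of 15, against 8.13% of all genes. The promoter of Ifitm1, which had the lowest ratio of the type I list, held neither motif. The ISRE share was alike in lists whose medians lay on opposite sides of 0.

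Cell cycle genes were close to level. The 40 measured genes of DNA replication and mitosis lay between -0.33 and 0.22, with 31 below 0 and a median of -0.13. Of the 38 above the median signal 8 were above 0, against 34.5% of all genes above it. Mki67, which encodes the proliferation marker Ki-67, read 4.55 and 4.56, and all 6 MCM helicase genes lay between -0.22 and -0.03. Immediate early genes, transcribed within minutes of a signal or of cell handling, were lower in 17 of 23 measured members. The median was -0.27 and none was past 2-fold. Of the 21 above the median signal 5 were above 0, against the same 34.5%. Dusp1, a phosphatase of MAP kinases, read 4.15 and 3.28, Fos, a subunit of AP-1, 4.41 and 3.68, and Egr1 2.17 and 1.32, while Nr4a2 was higher at 0.63. Heat shock genes had a median of -0.13 over 9 members and glycolysis and hypoxia genes 0.06 over 22, with none past 2-fold in either.

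Fibroblast genes, which encode the collagens and other parts of the extracellular matrix, were higher on the Sipa1-/- CD8+ T cell array. Of 45 measured members 44 were above 0 and 39 past 2-fold, with a median of 1.48, against 2.66% of all genes past 2-fold higher. Col1a1 and Col1a2, the chains of type I collagen, read 2.74 and 4.29, and 4.24 and 5.77, with ratios of 1.55 and 1.54. Col3a1 read 2.93 and 4.68. All 9 collagen genes measured in the list were past 2-fold, between 1.09 and 2.08.

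Other matrix and stromal genes followed. Dcn, a collagen-binding proteoglycan, read 2.63 and 4.31, and Postn, a matrix protein of reactive stroma, -1.42 and 0.66, a ratio of 2.08 with 3 probes between 2.05 and 2.11. Cxcl12, the ligand of Cxcr4, read -0.71 and 0.56. Fbn1, the microfibril protein fibrillin-1, read -1.08 and 0.40. Pdgfra, a receptor that marks mesenchymal cells, had a ratio of 1.44. The exceptions were Pi16, with a ratio of -0.08, and 5 members above 0 but under 2-fold, namely Timp2, Mfap4, Igf1, Bgn and Pdpn. Of the members detected on 1 array, Aspn was at least 3.28-fold higher on the Sipa1-/- array, Tnc and Twist1 were detected there only, Col15a1 on the Wt array only, and Tcf21 on neither.

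The MSC arrays gave the same genes at higher levels. All 42 fibroblast genes measured on the 4 arrays were higher on both MSC arrays than on both CD8+ T cell arrays, with medians of -1.25 and 0.35 on the CD8+ T cell arrays and 3.79 and 5.55 on the MSC arrays. Postn read 3.84 and 6.38 there, and Col1a2 8.56 and 8.91. Across all genes measured on the 4 arrays, 307 of the 358 genes past 2-fold higher in CD8+ T cells, or 85.8% (Wilson 95% interval 81.8 to 89.0, counting error only), had a mean MSC level at least 2-fold above their mean CD8+ T cell level. The share was 43.4% among the genes past 2-fold lower and 18.0% among all 13766 genes. The CD8+ T cell arrays enter both the 2-fold call and this comparison of levels, and the share over all genes was not matched for signal. Genes outside the stroma also read high on the MSC arrays, such as the globin gene Hba-a1 at 8.30 and 8.39. Among genes measured on both CD8+ T cell arrays, medians of the other stromal lists were close to 0. Pericyte and smooth muscle, endothelial, skeletal muscle, adipocyte, keratinocyte and Schwann cell genes had medians of 0.06, 0.03, -0.02, 0.12, 0.02 and -0.01, all with a sign that depended on the setting. The adipocyte median rests on 6 of 10 genes. Another 3, Cfd, Cidec and Adipoq, were detected on the Wt array only, at least 8.94-fold, 1.75-fold and 1.42-fold higher there. Some members were past 2-fold, against 2.66% of all genes past 2-fold higher and 1.40% lower. Lower were Rgs5 at -1.64 and Kcnj8 at -1.04 in the pericyte and smooth muscle list. Retn in the adipocyte list and Myh4 in the skeletal muscle list were lower too, at -1.34 and -1.17. Ncam1 in the Schwann cell list was higher, at 1.67.

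**Figure D5:**
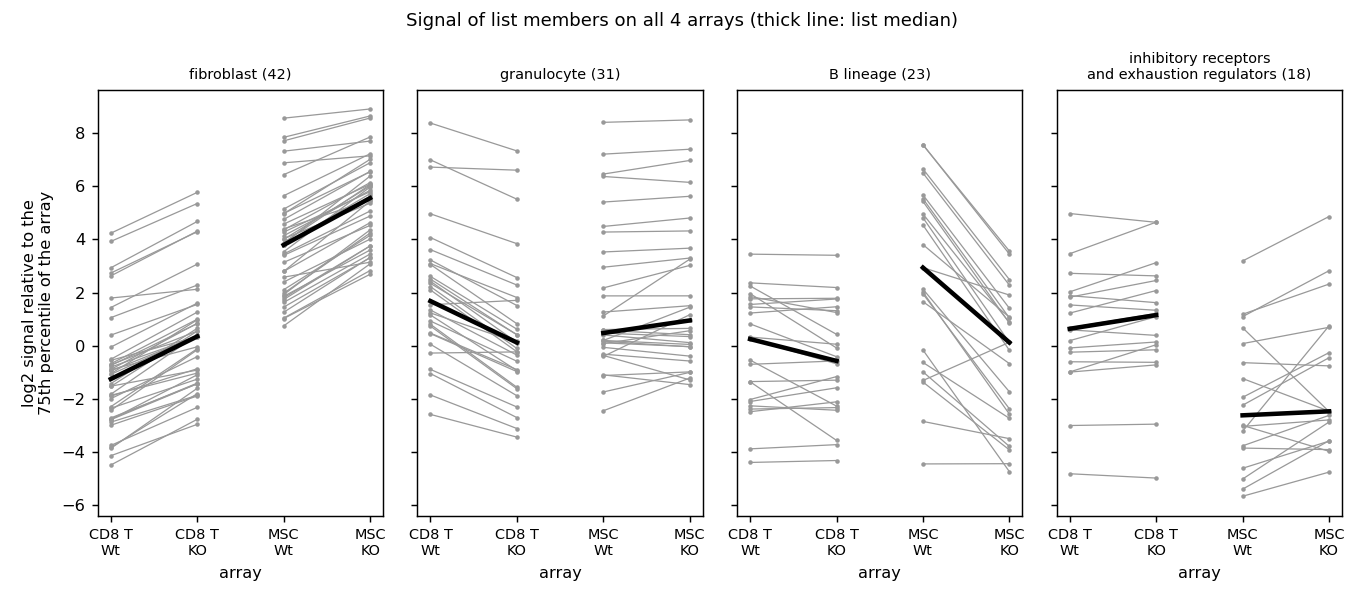
Level of the members measured on all 4 arrays (y axis, log2 signal relative to the 75th percentile of the array) for 4 lists, CD8+ T cell arrays on the left and MSC arrays on the right of each panel, with lines joining Wt and Sipa1-/- (KO) and thick lines at the list medians. Fibroblast medians go from -1.25 to 0.35 in CD8+ T cells and granulocyte medians from 1.68 to 0.12. The median of inhibitory receptors and exhaustion regulators is lower on the MSC arrays, where 11 of 18 members lie below both CD8+ T cell arrays.

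Granulocyte genes were lower on the Sipa1-/- array. Of 31 measured members 29 were below 0 and 27 past 2-fold, with a median of -1.51, against 1.40% of all genes past 2-fold lower. S100a8 and S100a9, subunits of calprotectin, read 6.99 and 5.52, and 8.38 and 7.33, with ratios of -1.48 and -1.05. That of S100a9 was past 2-fold in 8 of 11 alternatives relative to the median of all genes. Ltf, the granule protein lactoferrin, read 4.07 and 2.57, and Camp, an antimicrobial peptide, 4.96 and 3.84. Il1r2, a decoy receptor for IL-1, read 2.10 and -0.22, and the formyl peptide receptor genes Fpr1 and Fpr2 had ratios of -2.09 and -1.92.

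The members that were not past 2-fold were the primary granule genes Mpo, Elane and Prtn3, at 0.16, 0.04 and -0.85, and Csf3r, the receptor for G-CSF, which read 6.72 and 6.61. Il1b, Hcar2 and Acod1, products of activated myeloid cells outside the list, were taken from the 10 widest lower ratios described below. Il1b read 3.91 and 1.60, Hcar2 2.38 and 0.07 and Acod1, which makes itaconate, 3.68 and 1.37. On the MSC arrays the granulocyte list had a median ratio of 0.14. S100a8 read 7.21 and 7.39 there, so its difference between the CD8+ T cell arrays was not matched in the MSC pair.

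Monocyte and macrophage genes were split. The median over 31 members was -0.01 with a sign that depended on the setting. Past 2-fold lower were 5, namely Wfdc17, Cd14, Tlr2, Chil3 and Clec4n, against 1.40% of all genes. Clec4n was at the line, and relative to the median of all genes it was past 2-fold in 1 of 11 alternatives. Cd14, the coreceptor for lipopolysaccharide, read 3.23 and 0.80, and its 2 probes gave -2.42 and -2.44. Tlr2, a receptor for bacterial lipopeptides, had a ratio of -1.20. Csf1r, the receptor that maintains macrophages, had a ratio of 0.07, and the complement genes C1qa, C1qb and C1qc lay between 0.23 and 0.51. Past 2-fold higher was 1, against 2.66% of all genes, namely Arg1, an enzyme of arginine breakdown, at 1.16, from -2.17 to -1.01.

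Genes of dendritic cells and MHC class II were above 0 in 14 of 15 measured members, or 93.3% against 46.1% of all genes. The median was 0.34. The 7 MHC class II genes measured lay between 0.22 and 0.54. Cd74, the invariant chain, read 6.44 and 6.97. Past 2-fold higher was 1 member, against 2.66% of all genes, namely Xcr1, the receptor of cross-presenting dendritic cells, at -3.21 and -1.09. Clec9a, another marker of these cells, had a ratio of 0.63.

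B-lineage genes had a median of -0.04 over 23 members, and 5 were past 2-fold lower, against 1.40% of all genes. Among these 5 were the surrogate light chain genes of pre-B cells. Vpreb1 read 1.96 and -0.08, Vpreb3 2.25 and 0.43, and Igll1 -1.35 and -3.56, with ratios of -2.04, -1.82 and -2.21. Vpreb2 and Jchain, the joining chain of secreted antibodies, were at -1.73 and -1.23. Ms4a1, which encodes CD20 of mature B cells, read 1.56 and 1.76, and Cd79b, a chain of the B-cell receptor, had a ratio of -0.04. On the MSC arrays Vpreb1 read 7.57 and 3.45 and Igll1 4.82 and 0.13, in the same direction.

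Erythroid genes were lower, with a median of -1.08 over 15 measured members and 9 past 2-fold lower, against 1.40% of all genes. The 3 globin genes lay between -1.26 and -1.09, Hba-a2 at 4.02 and 2.89 among them. Slc4a1, the anion exchanger band 3 of red cells, had a ratio of -1.27 and Alas2, the first enzyme of heme synthesis in red cells, -1.18. On the MSC arrays, 14 of the 15 genes were above both CD8+ T cell arrays.

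Smaller lists also held genes past 2-fold, against 2.66% of all genes past 2-fold higher and 1.40% lower. Among NK and gamma-delta T cell genes, with a median of -0.48 over 10 members and 9 below 0, Klrb1c, which encodes NK1.1, read -0.10 and -2.12, a ratio of -2.03. Ncr1, which encodes the NK receptor NKp46, had a ratio of -0.71, and Tyrobp and Fcer1g, adaptors shared with myeloid cells, -0.37 and -0.65. Among CD4 T helper and regulatory T cell genes, Ikzf2, which encodes Helios, read 1.21 and 0.20, a ratio of -1.01 that was past 2-fold in 1 of 11 alternatives relative to the median of all genes, and Foxp3, the regulatory T cell factor, had a ratio of -0.37 at a low level. Of 14 measured mast cell, basophil and eosinophil genes, 1 was past 2-fold higher and 2 lower. The basophil protease genes Mcpt8 and Prss34 had ratios of -2.05 each, while Ccr3 was at 1.79 and Cpa3, of mast cells, at 0.36. Megakaryocyte genes had a median of 0.18 over 5 members. The differences of these marker lists stood beside those of T-cell genes in the same RNA, and their part in the T-cell ratios was not tested.

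Among all genes above the median signal, the 10 widest ratios in each direction were taken. The higher ones were AA465934, Grn, Xaf1, Postn, Tox4, Mgp, Aebp1, Col6a1, Nbl1 and Col16a1, of which Postn, Mgp and Col6a1 are in the fibroblast list. Aebp1, which binds collagen, read -0.81 and 1.19, and Col16a1, a minor collagen, -0.34 and 1.52. The lower ones were Wfdc17, Ifitm1, Cd14, Mrgpra2b, Stfa2l1, Il1r2, Il1b, Hcar2, Acod1 and Clec4e. These are genes of granulocytes or activated monocytes, along with Ifitm1 of the type I interferon-stimulated list, whose cell of origin was not tested.

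Grn, Xaf1 and Tox4 reached this list through 1 probe each. A Grn probe read 0.55 and 8.49 while the other 2 read 4.87 and 5.02, and 0.34 and 0.53. A Tox4 probe had a ratio of 3.95 while the other had 0.16. The single AA465934 probe read -2.01 and 2.16. Probes of all 4 genes moved the same way on the MSC arrays, with 0.75 and 7.40 for the Grn probe. Of 90 genes past 2-fold with 2 or more probes, 58 had every probe past 2-fold in the same direction, or 64.4% (Wilson 95% interval 54.2 to 73.6), and 2 had probes on opposite sides of 0.

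Genes detected on 1 array only were described by a bound. Against the lowest signal well above background on the other array, 358 genes were detected on the Wt array alone and 472 on the Sipa1-/- array alone, and 44 and 105 of them differed by at least 2-fold. Syt10, a synaptotagmin, read 2.14 on the Sipa1-/- array and was at least 208-fold higher there. Rbp4, the carrier of retinol, was at least 13.2-fold higher and Crabp1, a retinoic acid-binding protein, at least 6.12-fold higher on that array. On the Wt array, Cfd, the complement protease adipsin of the adipocyte list, was at least 8.94-fold higher. Prok2, a chemokine-like peptide of neutrophils, was at least 6.19-fold higher there.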

How the data were processed

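RNA of the GFP– TCRb+ CD8+ gate was labelled with Cy3 and hybridized to Agilent SurePrint G3 Mouse arrays. The deposited scanner files hold spot intensities that the authors' Feature Extraction software (12.0.3.1 per the file headers, 9.1 per the labels) had corrected for background, with no normalization between arrays. The deposited series matrix holds the same intensities times 1 constant per array (0.941 and 1.13 for the CD8+ T cell arrays), whose origin is not given in the sources used here. No spot was saturated, the 75th percentile was 18.0 and 16.4 times the median background of the Wt and Sipa1-/- arrays, and the number of arrays limits the precision.

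Intensities of 59305 spots that are not controls were taken as log2 minus the 75th percentile of the array. Probes were kept with no saturation or non-uniformity flag and with a positive, significant signal flagged well above background on both CD8+ T cell arrays, and averaged per gene. Accessions gave symbols through a RefSeq table (GRCm38.p6) for 57.6% of spots. Named genes were Sipa1, 25 T-cell genes, list members past 2-fold above the median signal, and the 10 widest ratios in each direction above it, without clone and predicted names. Some genes of the rule are not reported here, though list counts and medians include them. The members and lists were chosen with earlier results of these data known. On simulated data 100% of 200 changed genes were recovered over 14339 genes, which is a check of the code only. How often the 2-fold calls on the real arrays were right was not tested. Of 11 alternatives, 1 was chosen after seeing the data. Normexp used limma 3.58.1 in R 4.3.3, and all else ran in Python 3.11.15 with matplotlib 3.10.9, statsmodels 0.14.6, scipy 1.17.1, pandas 2.3.3 and numpy 2.4.6.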

Additional observations from a re-analysis of the deposited data

Results flagged for a closer look

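4 named genes were past 2-fold in opposite directions in CD8+ T cells and MSCs. In the MSC pair 30.7% of all genes were past 2-fold in either direction, against 4.06% in the CD8+ T cell pair. The share of all genes past 2-fold in opposite directions was not counted, so 4 cannot be called many or few. The difference was not tested, since each cell type had 1 array per genotype. Ikzf2 (Helios) had a log2 ratio of -1.01 in CD8+ T cells and 1.59 in MSCs, where it read -4.45 and -2.86. Jchain had ratios of -1.23 and 1.44. G0s2, an inhibitor of fat breakdown in the granulocyte list, had -1.11 and 1.25, and Kcnj8, a potassium channel of pericytes, -1.04 and 1.22. Relative to the median of all genes, the CD8+ T cell ratio was past 2-fold in 1 of 11 alternatives for Ikzf2 and in 7 for Kcnj8, and in all 11 for Jchain and G0s2.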

How the results depend on the processing

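No paired analysis was possible because each genotype has 1 array, so a replicate block could not be fitted and no array could be left out. List medians and ratios of single genes below are relative to the median of all genes, which the median shift moved by -0.15 and the series matrix by 0.13. Changes smaller than the pooled probe SD of 0.25 were counted as unchanged. The medians of 16 of 30 lists kept their sign under all alternatives, among them fibroblast (1.11 to 1.62), granulocyte (-1.55 to -1.36), erythroid (-1.13 to -0.47), type I interferon (-0.54 to -0.40), interferon-gamma (0.16 to 0.28) and inhibitory receptors (0.18 to 0.29). Pdcd1 and Rgs16 were past 2-fold in all 11 alternatives.

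Counts of genes past 2-fold depended most on the setting. Against 381 higher and 201 lower, flags on at least 1 array gave 685 and 371, no flags 1059 and 633, normexp 108 and 98, and genes above the median signal 67 and 70. The share of higher genes with more signal in MSCs became 71.8%, 56.0% and 80.4% with flags on 1 array, without flags, and above the median signal. That of lower genes became 31.9% with no flags, 35.4% with the median shift, 26.5% with normexp and 28.8% above the median signal. Probe agreement became 52.7% with flags on 1 array, 39.0% with no flags, 80% above the median signal and 75% without the 100 genes whose probes lay over 1 log2 unit apart, a setting chosen after seeing the data. With normexp, which lifts dim spots, the erythroid median was -0.47, the fibroblast median 1.11, and genes on 1 array past 2-fold numbered 2 and 5. The adipocyte median was -0.32 with flags on 1 array and -0.18 with no flags, the Schwann cell median 0.28 with no flags, and the endothelial and skeletal muscle medians 0.39 and 0.74 above the median signal, where 4 endothelial genes and 1 skeletal muscle gene were left. The brightest probe reversed Xaf1, to -1.004, and put Grn at 0.19. Oas2 was at -0.73 with no flags. Calls near the line were lost in 10 of 11 alternatives for Ikzf2 and Clec4n, 4 for Kcnj8 and 3 for S100a9.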
